A study of Mus musculus with 12 samples.

Results

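Retinoid metabolism and aldehyde oxidation in the mouse kidney were followed through 9 of the 24421 gene symbols in the deposited RNA-seq tables: Rbp4, Stra6, Rarb, Aldh1a1, Aldh1a7, Aldh1a2, Aldh1a3, Aox1 and Aox3. The genes were chosen by name, with earlier results of the same libraries known, and where a symbol had several transcripts the row was selected on its summed count over the 12 libraries, the highest standing for the gene. That sum was the only measured value in the rule, and the adjusted p-values given here describe genes that were not drawn blindly.

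Kidneys came from male C57BL/6 mice at 6 weeks of age, in 4 groups of 3 libraries. WT baseline and Tet2-/- baseline kidneys came from mice without an operation. WT IR and Tet2-/- IR kidneys had 60 min of clamping of the right renal pedicle, removal of the left kidney and 24 h of reperfusion, so that ischemia-reperfusion (IR) here also includes surgery and loss of the other kidney, and no sham-operated kidney was sequenced. The mice labelled Tet2-/- came from heterozygous breeding pairs, so the allele was not limited to the kidney, and whole-kidney RNA mixes tubules, vessels, immune cells and pelvis. Counts summed over 1 transcript per gene came to between 51007362 and 107969879 per library. Tet2 itself, given as FPKM (fragments per kilobase of transcript with library size scaled out), measured 9.15, 6.25 and 7.33 in WT baseline and 9.24, 16.6 and 10.3 in Tet2-/- baseline, so the baseline libraries labelled Tet2-/- did not have less Tet2 signal. After IR it was 9.34, 3.97 and 3.85 in WT and 2.64, 3.20 and 1.76 in libraries labelled Tet2-/-. Genotype is therefore used throughout as the label of the library.

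Vitamin A circulates as retinol bound to RBP4 and can enter cells through the receptor STRA6. Alcohol dehydrogenases and short-chain dehydrogenases oxidise it reversibly to retinaldehyde, and the ALDH1A enzymes then make retinoic acid in a step that cannot be reversed. Retinoic acid binds the nuclear receptors RAR and RXR, and Rarb is both one of those receptors and a classical target of them. The aldehyde oxidases, encoded by Aox1 and Aox3, are molybdenum enzymes that oxidise aldehydes, retinaldehyde among them, and nitrogen heterocycles. In the kidney, the proximal tubule reclaims filtered RBP4 with its retinol through megalin, and the urothelium and the developing collecting system are known sites of retinoic acid signalling.

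With IR, Aldh1a1, Aldh1a7, Aldh1a2 and Aox1 were called higher and Aox3 lower in the libraries labelled Tet2-/-. In WT, Aldh1a2 was called higher and Aox3 lower. Aldh1a1 and Aldh1a7 were also higher in every WT IR library than in any WT baseline library. Their log2 changes in WT, 1.42 and 2.06, were not called. A gene was called when its adjusted p from edgeR was under 0.05 and its log2 fold change was past 1 in either direction. Each of the 9 members passed the filter on low counts in every comparison. After IR in Tet2-/-, 4 members were called higher, against 12.7% of all genes tested, and 1 was called lower, against 11.6% (24.3% in either direction). After IR in WT, 1 was called higher, against 1.46%, and 1 lower, against 0.887% (2.35% in either direction). No member was called between genotypes, at baseline (0.0124% of all genes were called higher and 0.00% lower) or after IR (2.30% and 3.85%, or 6.15% in all), and none had a called interaction of genotype and IR (3.78% of all genes with a positive and 5.38% with a negative term, 9.16% in all). At an unadjusted p under 0.05 the members numbered 7 at baseline, 4 after IR and 3 for the interaction, where 11.8%, 28.9% and 27.2% of all genes tested passed it. DESeq2 called 6 members at baseline, 2 after IR and 2 for the interaction, where it called 320 of 16086, 1654 of 16186 and 2808 of 16741 genes. With the replicate number as a block, the members called after IR in WT were 3 higher and 2 lower, where over all 16015 genes the block gave 428 higher and 559 lower in place of 234 and 142. It called 1 interaction among the members, and 2101 of 16741 over all genes in place of 1534.

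**Figure D1:**
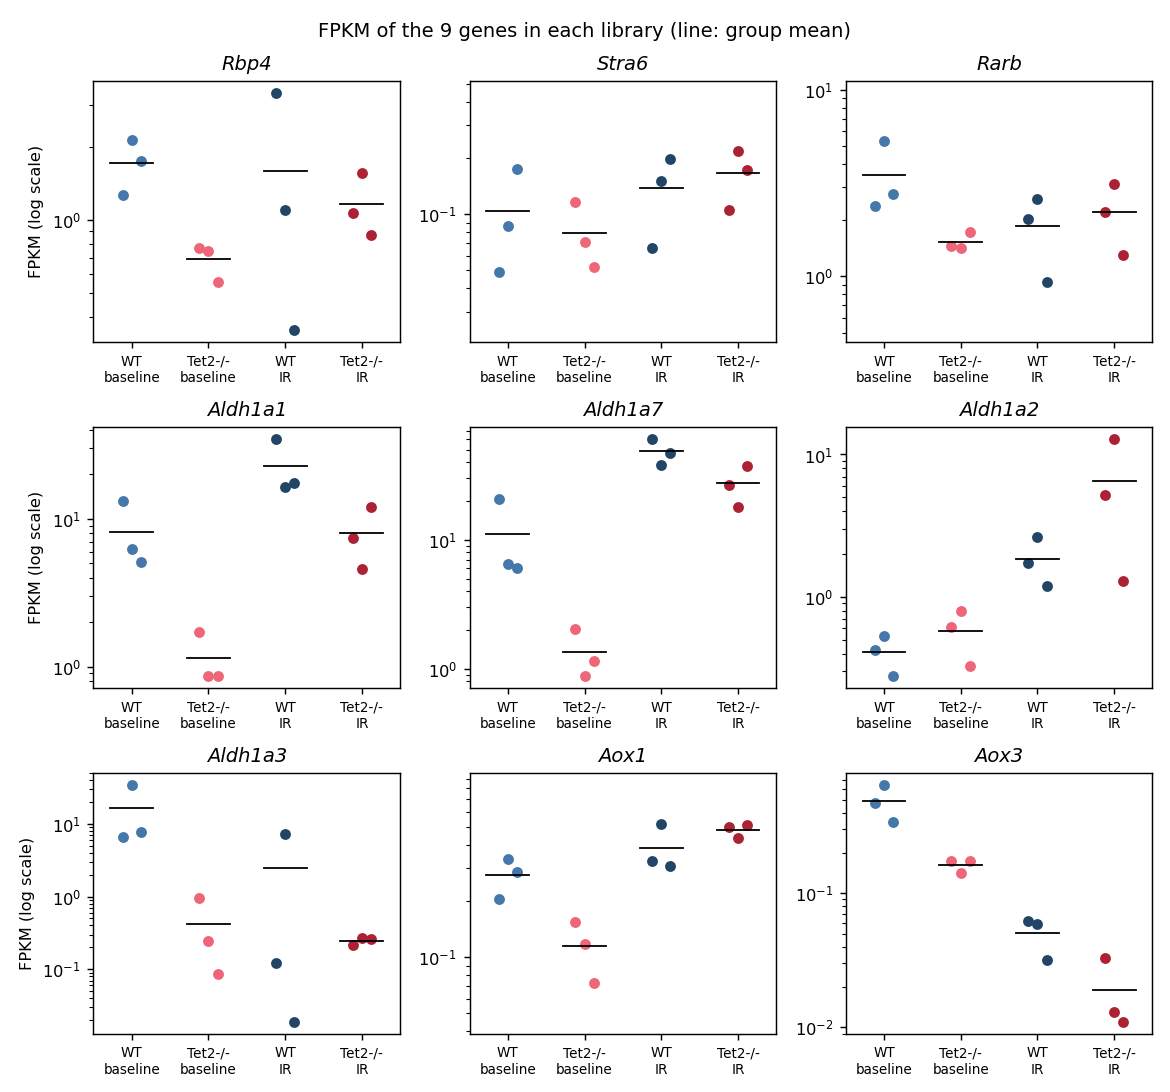
FPKM (log axis, a separate scale in each panel) of the 9 genes in every library, with 3 points a group and a line at the group mean. Aldh1a1 and Aldh1a7 are lowest in Tet2-/- baseline and highest in WT IR, Aldh1a2 is higher in both IR groups, Aox3 is lower in both IR groups, and Aldh1a3 spans 34.5 to 0.019 FPKM within WT libraries.

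Rbp4 (NM_011255, mm9 chr19:38191110-38199301, minus strand) encodes the plasma carrier of retinol. Its FPKM was 1.28, 2.15 and 1.75 in WT baseline, 0.767, 0.745 and 0.559 in Tet2-/- baseline, 3.35, 1.10 and 0.352 in WT IR, and 1.08, 1.58 and 0.867 in Tet2-/- IR. Every Tet2-/- baseline library lay below every WT baseline library, while the 3 WT IR libraries spanned the widest range and the IR groups overlapped. At baseline the log2 difference, Tet2-/- against WT, was -1.23 with a standard error of 0.29 (edgeR adjusted p = 0.239). The log2 fold change with IR was -0.21 with a standard error of 0.69 in WT and 0.50 with a standard error of 0.32 in Tet2-/-, and neither passed the test. The second Rbp4 transcript, NM_001159487, had nearly the same total (1333 counts against 1356) and the same baseline difference of -1.23.

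Stra6 (NM_001162476, mm9 chr9:57981882-58001804, plus strand) encodes the membrane receptor that takes retinol from RBP4. It was near the lower limit of these libraries, at 0.049, 0.086 and 0.175 FPKM in WT baseline, 0.116, 0.071 and 0.052 in Tet2-/- baseline, 0.066, 0.151 and 0.198 in WT IR, and 0.105, 0.217 and 0.173 in Tet2-/- IR. All 4 groups overlapped, and no comparison passed the test. Its 4 transcripts shared most of their reads, with totals of 431 to 435.5 counts over the 12 libraries.

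Aldh1a1 (NM_013467, mm9 chr19:20676472-20717952, plus strand), the cytosolic retinaldehyde dehydrogenase, and Aldh1a7 (NM_011921, mm9 chr19:20767443-20802046, minus strand), a close rodent relative with little known activity on retinaldehyde, are neighbours on chromosome 19. Their transcripts were 88.9% identical over 2069 aligned bases, but only 7.53% of the 50-base windows of Aldh1a1 occurred without a mismatch in Aldh1a7, and 1 of its 100-base windows did. Reads of 50 bases or fewer from the shared windows could not be assigned by sequence to either gene. Aldh1a2 and Aldh1a3 shared no 50-base window with them or with each other. The likeness also extends upstream of the genes. In the RefSeq promoter table (GRCm38.p6, 250 bases before to 50 bases after each start), where 8 of the 9 members had an entry and Aldh1a3 had none, both promoters held an identical run of 65 bases, from 94 to 30 bases before the start. These stretches are shown because the pair moved together, with the shared run in capitals, read 5′ to 3′ on each gene's own strand at chr19:20601854-20601958 (plus) and chr19:20727566-20727670 (minus). The table's Aldh1a1 start lies 14 bases upstream of the start of the counted transcript.
Aldh1a1: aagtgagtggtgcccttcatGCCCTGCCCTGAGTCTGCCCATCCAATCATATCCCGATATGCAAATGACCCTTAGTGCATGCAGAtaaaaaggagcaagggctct
Aldh1a7: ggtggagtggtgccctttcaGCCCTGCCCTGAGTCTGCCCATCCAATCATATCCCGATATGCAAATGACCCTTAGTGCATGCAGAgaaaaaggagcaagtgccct

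Aldh1a1 measured 13.2, 6.22 and 5.14 FPKM in WT baseline and 1.71, 0.864 and 0.869 in Tet2-/- baseline. After IR it measured 34.9, 16.4 and 17.5 in WT and 7.44, 4.56 and 12.1 in Tet2-/-. The WT libraries were higher than the Tet2-/- libraries before and after IR with no overlap, and each genotype was higher after IR than before it with no overlap. In group means the order was WT IR (22.9 ± 10.3 FPKM, SD, n = 3), WT baseline (8.19 ± 4.38), Tet2-/- IR (8.04 ± 3.81) and Tet2-/- baseline (1.15 ± 0.488), and the middle pair did not differ beyond their spread. With IR, Aldh1a1 rose in Tet2-/- by 2.60 on the log2 scale (standard error 0.46, adjusted p = 0.00354, edgeR). In WT the log2 fold change was 1.42 with a standard error of 0.43 (adjusted p = 0.12), and it passed when the replicate number was a block (1.46, adjusted p = 0.0054). The log2 difference between genotypes was -2.75 (standard error 0.44, adjusted p = 0.206) at baseline and -1.57 (standard error 0.45, adjusted p = 0.0704) after IR. Neither was called by edgeR, while DESeq2 called both (adjusted p = 2.79e-08 and 0.00511), and a fit of all 12 libraries called the difference after IR (adjusted p = 0.0427).

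Aldh1a7 was likewise highest in WT IR and lowest in Tet2-/- baseline. It measured 20.8, 6.45 and 6.03 FPKM in WT baseline and 2.03, 0.881 and 1.16 in Tet2-/- baseline, and 60.7, 37.7 and 46.9 in WT IR against 26.7, 18.0 and 37.4 in Tet2-/- IR. None of these 4 comparisons had overlapping groups. The increase with IR in Tet2-/- was the largest of any member, 4.12 on the log2 scale or 17.3-fold (standard error 0.42, adjusted p = 0.000418, edgeR). In WT the log2 fold change was 2.06 with a standard error of 0.50 and an adjusted p of 0.0785, which became 2.29 and 0.00804 with the replicate number as a block. Without WT baseline replicate 1, the highest of its group, it was 2.89 with an adjusted p of 0.0224, and in a fit of all 12 libraries its adjusted p was 0.0352. The interaction, which tests whether IR had unequal effects in the genotypes, was 2.09 (standard error 0.70, adjusted p = 0.0812), and 1.85 with an adjusted p of 0.033 under the block. Genotypes differed by -2.95 at baseline (standard error 0.56, adjusted p = 0.206), or by -2.13 without WT baseline replicate 1, and by -0.90 after IR (standard error 0.33, adjusted p = 0.127).

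Whole-kidney RNA cannot tell fewer cells of a type from less RNA per cell. The markers of the proximal tubule, where transporters such as Slc34a1 and Slc5a2 reside, summed to between 5110 and 6240 FPKM in WT baseline and between 5200 and 6390 in Tet2-/- baseline, and 0 of 13 were called there. After IR they summed to between 3530 and 4930 in WT and between 1250 and 2620 in Tet2-/-, with 2 of 13 called lower by IR in WT (against 0.887% of all genes), 9 of 13 in Tet2-/- (11.6%), and 6 of 13 lower in Tet2-/- than in WT (3.85%). In Tet2-/-, Aldh1a1 and Aldh1a7 were thus higher after IR in libraries where this marker list was lower. Between genotypes after IR the log2 differences of both genes were negative, as was the median of the list (-1.22), and the part of proximal tubule cells in these values was not tested.

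Although Aldh1a1 and Aldh1a7 varied together, their balance moved. The ratio of Aldh1a7 to Aldh1a1 FPKM was 1.58, 1.04 and 1.17 in WT baseline and 1.19, 1.02 and 1.33 in Tet2-/- baseline, which overlapped. It was 1.74, 2.29 and 2.68 in WT IR and 3.59, 3.94 and 3.08 in Tet2-/- IR. Each IR library exceeded every baseline library, and each Tet2-/- IR library exceeded every WT IR library. With 3 libraries against 3, the smallest two-sided p of an exact permutation test is 0.1, so the ratio was not tested further.

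**Figure D2:**
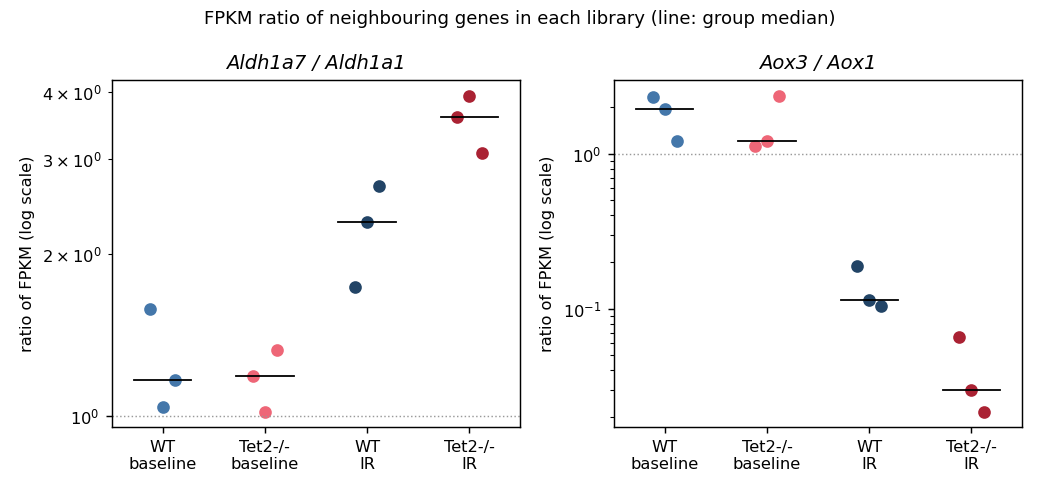
Ratio of FPKM (log axis) of Aldh1a7 to Aldh1a1 on the left and of Aox3 to Aox1 on the right in each of the 12 libraries, with a line at the group median and a dotted line at equal FPKM. The left ratio runs from 1.02 to 1.58 at baseline and from 1.74 to 3.94 after IR, and the right ratio from 1.12 to 2.37 at baseline and from 0.0217 to 0.189 after IR.

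Aldh1a2 (NM_009022, mm9 chr9:71063596-71144050, plus strand), the main retinaldehyde dehydrogenase of the embryo, was low in every baseline kidney. It measured 0.426, 0.535 and 0.278 FPKM in WT baseline and 0.612, 0.794 and 0.326 in Tet2-/- baseline. After IR it measured 1.74, 2.63 and 1.20 in WT and 5.19, 12.9 and 1.29 in Tet2-/-. Every IR library lay above every baseline library, and the genotypes overlapped before and after IR, with 1 Tet2-/- IR library within the WT IR range. With IR it rose by 2.09 on the log2 scale in WT (standard error 0.36, adjusted p = 0.0344, edgeR) and by 3.17 in Tet2-/- (standard error 0.74, adjusted p = 0.0116). The WT call was lost without any one of WT baseline replicates 1, 2 and 3 or WT IR replicates 2 and 3 (adjusted p = 0.128, 0.0754, 0.0879, 0.11 and 0.0521), while the log2 change stayed between 1.82 and 2.33. It was also lost in a fit of all 12 libraries (2.09, adjusted p = 0.0729) and with limma on log2(FPKM + 1), where the change was 0.99. In Tet2-/- the change was 2.28 without Tet2-/- IR replicate 2 and 3.62 without replicate 3, and it remained called. The genotypes differed after IR by 1.66 (standard error 0.69, adjusted p = 0.168). The difference was 0.76 (adjusted p = 0.452) without Tet2-/- IR replicate 2, the library with the highest value, and 2.12 (adjusted p = 0.0495) without Tet2-/- IR replicate 3, the library with the lowest. Replicate 3 also held the highest adipocyte markers, the 9 of them summing to 622 FPKM against 121 and 89.1 in the other Tet2-/- IR libraries. Fabp4 alone gave 445 FPKM of the sum in replicate 3, and 106 and 78.9 in replicates 1 and 2. The mean of the 9 on the scale of log2(FPKM + 0.1) was 3.89 in replicate 3, and 0.09 and -0.44 in replicates 1 and 2. Markers of the mesothelium, a known site of Aldh1a2 in other organs, summed to between 3.03 and 8.97 FPKM in Tet2-/- baseline and between 34.7 and 42.7 in Tet2-/- IR, with 4 of 5 tested called higher by IR, beside 12.7% of all genes. Krt19, a keratin also known from injured tubules, gave 22.2 to 31.3 FPKM of these sums in Tet2-/- IR. Msln itself was 4.10, 2.38 and 1.67 FPKM in Tet2-/- IR replicates 1, 2 and 3. In WT the list summed to between 12.3 and 28.5 at baseline and 13.3 and 36.3 after IR, and 0 of 5 were called. In Tet2-/- IR replicates 1, 2 and 3, the 7 fibroblast and pericyte markers summed to 31.8, 74.7 and 13.3 FPKM and the 6 macrophage markers to 39.0, 72.6 and 24.5, an order that Aldh1a2 shared and that other lists, such as those of the endothelium and the loop of Henle, had as well. Of these, 0 of 7 fibroblast and pericyte markers were called with IR in Tet2-/-, and 2 of 6 macrophage markers were called higher and 1 lower. Of the podocyte markers, 4 of 5 were called higher with IR in Tet2-/-, with a median log2 change of 1.64. The part of mesothelial, podocyte, fibroblast or macrophage cells in the Aldh1a2 values was not tested.

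Aldh1a3 (NM_053080, mm9 chr7:73535779-73572363, minus strand), a retinaldehyde dehydrogenase of epithelia, spanned the widest range of the members on a log scale of FPKM. It measured 6.54, 34.5 and 7.59 FPKM in WT baseline and 0.942, 0.246 and 0.086 in Tet2-/- baseline, with no overlap. After IR the WT libraries measured 0.121, 7.18 and 0.019, and the Tet2-/- libraries 0.218, 0.266 and 0.258. The second replicate stood far above the other WT IR libraries, with 2107 counts against 28.5 and 5, and WT baseline replicate 2 likewise stood highest in its group. The baseline difference of -5.22 on the log2 scale, 37.2-fold, had a standard error of 1.03 and an adjusted p of 0.206 (edgeR). It was -4.01 without WT baseline replicate 2 and -6.43 without Tet2-/- baseline replicate 1, and DESeq2 called it (adjusted p = 0.000558). In WT the change with IR was -2.83 with a standard error of 1.67 (adjusted p = 0.362). It was -7.92 (adjusted p = 0.0691) without WT IR replicate 2, -1.65 without WT baseline replicate 2, and -4.94 (adjusted p = 0.0311) with the replicate number as a block. The genotype difference after IR was -3.32 (standard error 1.71, adjusted p = 0.249) and turned to 1.76 without WT IR replicate 2, and the interaction without that library was 6.98 (adjusted p = 0.0152) against 1.86 (adjusted p = 0.587) with it.

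Markers of the urothelium, the lining of the renal pelvis, were lower in Tet2-/- baseline, as Aldh1a3 was, and so were other lists. The 5 urothelial markers summed to between 15.8 and 37.3 FPKM in WT baseline and between 1.58 and 7.45 in Tet2-/- baseline. All 5 had negative log2 differences, with a median of -2.84, and none was called. All tested adipocyte, mesothelium and endothelium markers were negative too, with medians of -4.51, -1.63 and -0.39. The medians of the fibroblast and pericyte, macrophage, neutrophil and lymphocyte lists were positive. Upk2 was 3.86, 7.64 and 6.15 FPKM in WT baseline against 1.54, 0.13 and 0.723 in Tet2-/- baseline. Within WT IR, Upk2 and Aldh1a3 parted, since Upk2 was 12.4, 4.14 and 1.80 FPKM in replicates 1, 2 and 3, where Aldh1a3 was 0.121, 7.18 and 0.019. Between genotypes after IR, 4 of the 5 urothelial markers had negative log2 differences, as Aldh1a3 did. Their median was -1.37, and none was called. The urothelial list summed to between 76.4 and 161 FPKM in WT IR and between 274 and 455 in Tet2-/- IR, of which Krt20, which injured tubules also make, gave 26.6 to 151 and 261 to 436 FPKM. The part of pelvic tissue in the Aldh1a3 values was not tested.

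Summed over the 4 Aldh1a genes, FPKM was 41.0, 47.7 and 19.0 in WT baseline, 5.30, 2.79 and 2.44 in Tet2-/- baseline, 97.4, 63.9 and 65.6 in WT IR, and 39.6, 35.7 and 51.0 in Tet2-/- IR. The make-up of that sum differed between the groups. Aldh1a3 made up between 16.0% and 72.4% of it in WT baseline and less than that, between 0.029% and 11.2%, in WT IR, where Aldh1a7 made up between 58.9% and 71.4%. Aldh1a2 made up between 2.53% and 36.1% in Tet2-/- IR and between 1.78% and 4.12% in WT IR. In WT baseline Aldh1a7 made up 50.8%, 13.5% and 31.7%, and Aldh1a3 the larger part in replicates 2 and 3. With Aldh1a7 in it, the sum is not a measure of retinoic acid synthesis.

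Rarb (NM_011243, mm9 chr14:17263354-17407990, minus strand) encodes a retinoic acid receptor. It measured 2.37, 5.31 and 2.76 FPKM in WT baseline, 1.45, 1.42 and 1.72 in Tet2-/- baseline, 2.02, 2.61 and 0.931 in WT IR, and 2.21, 3.14 and 1.30 in Tet2-/- IR. The Tet2-/- baseline libraries lay together below all WT baseline libraries, and all other pairs of groups overlapped. The baseline difference was -1.10 on the log2 scale (standard error 0.31, adjusted p = 0.278, edgeR) and -0.66 without WT baseline replicate 2, the highest library. The change with IR was -0.99 in WT (standard error 0.42, adjusted p = 0.217) and 0.25 in Tet2-/- (standard error 0.29, adjusted p = 0.51), with an interaction of 1.28 (standard error 0.54, adjusted p = 0.152). The 4 Rarb transcripts had totals between 7223 and 8144 counts and baseline differences between -1.10 and -0.99.

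The Rarb promoter is shown because its direct repeat is the textbook site of retinoic acid receptors, against which the member promoters were read. Promoters were searched on both strands for the consensus hexamer AGGTCA, for its variant with T in the third place, AGTTCA, and for the direct repeats DR5 and DR2, named after the bases between their hexamers, each of which is one of those above or has G for its first letter. Of the 8 members with an entry, Rarb alone held DR5, which 0.0974% of the 32851 promoters in the table hold. The match, in capitals, covers 53 to 37 bases before the start at chr14:16575493-16575549 (GRCm38.p6, minus strand).
Rarb: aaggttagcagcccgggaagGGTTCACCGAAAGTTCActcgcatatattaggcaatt
AGTTCA was found in Rarb, as the downstream part of that repeat, and in Stra6, against 14.0% of all promoters. AGGTCA (16.3%) and DR2 (0.268%) were found in no member. A match describes the letters of these windows and says nothing of binding in these kidneys.

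Aox1 (NM_009676, mm9 chr1:58086813-58163254, plus strand) and Aox3 (NM_023617, mm9 chr1:58169980-58257296, plus strand) lie next to each other on chromosome 1 and encode aldehyde oxidases, AOX3 being the main form of mouse liver. Their transcripts were 67.6% identical where they aligned and shared no 50-base window. Both were low in the kidney. Aox1 measured 0.204, 0.334 and 0.284 FPKM in WT baseline, 0.154, 0.118 and 0.073 in Tet2-/- baseline, 0.328, 0.518 and 0.308 in WT IR, and 0.50, 0.432 and 0.508 in Tet2-/- IR. The Tet2-/- baseline libraries were the lowest and did not overlap any other group, and the IR groups overlapped each other. With IR, Aox1 rose in Tet2-/- by 1.81 on the log2 scale (standard error 0.35, adjusted p = 0.0052, edgeR). In WT the change was 0.41 (standard error 0.31, adjusted p = 0.472), and the interaction was 1.44 (standard error 0.46, adjusted p = 0.0707), reaching an adjusted p of 0.0472 without WT IR replicate 2. The baseline difference was -1.17 (standard error 0.35, adjusted p = 0.303).

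Aox3 went the other way after IR. It measured 0.471, 0.647 and 0.341 FPKM in WT baseline, 0.173, 0.142 and 0.173 in Tet2-/- baseline, 0.062, 0.059 and 0.032 in WT IR, and 0.033, 0.013 and 0.011 in Tet2-/- IR. The 4 groups stood in that descending order, and only the IR groups overlapped. Aox3 was lower after IR, by a log2 change of -3.33 in WT (standard error 0.38, adjusted p = 0.0108, edgeR), 10.1-fold, and of -3.31 in Tet2-/- (standard error 0.50, adjusted p = 0.00189), 9.9-fold. Without WT IR replicate 2 the WT change was -3.41 with an adjusted p of 0.0563. The IR values rest on 11 to 22 counts a library in WT and 4.5 to 16 in Tet2-/-, against 56 to 277 at baseline. On the log2(FPKM + 1) scale of limma, which compresses low values, the changes with IR were within the fold limit, at -0.19 for Aox3 and 0.41 for Aox1 in Tet2-/- and -0.50 for Aox3 in WT. The interaction was 0.07 (standard error 0.75, adjusted p = 0.965). The baseline difference was -1.50 (standard error 0.30, adjusted p = 0.206) and the difference after IR -1.46 (standard error 0.56, adjusted p = 0.143). The ratio of Aox3 to Aox1 was 2.31, 1.94 and 1.20 in WT baseline and 1.12, 1.20 and 2.37 in Tet2-/- baseline, and 0.189, 0.114 and 0.104 in WT IR and 0.066, 0.0301 and 0.0217 in Tet2-/- IR. More Aox3 than Aox1 was thus measured in all 6 baseline libraries and less in all 6 IR libraries.

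**Figure D3:**
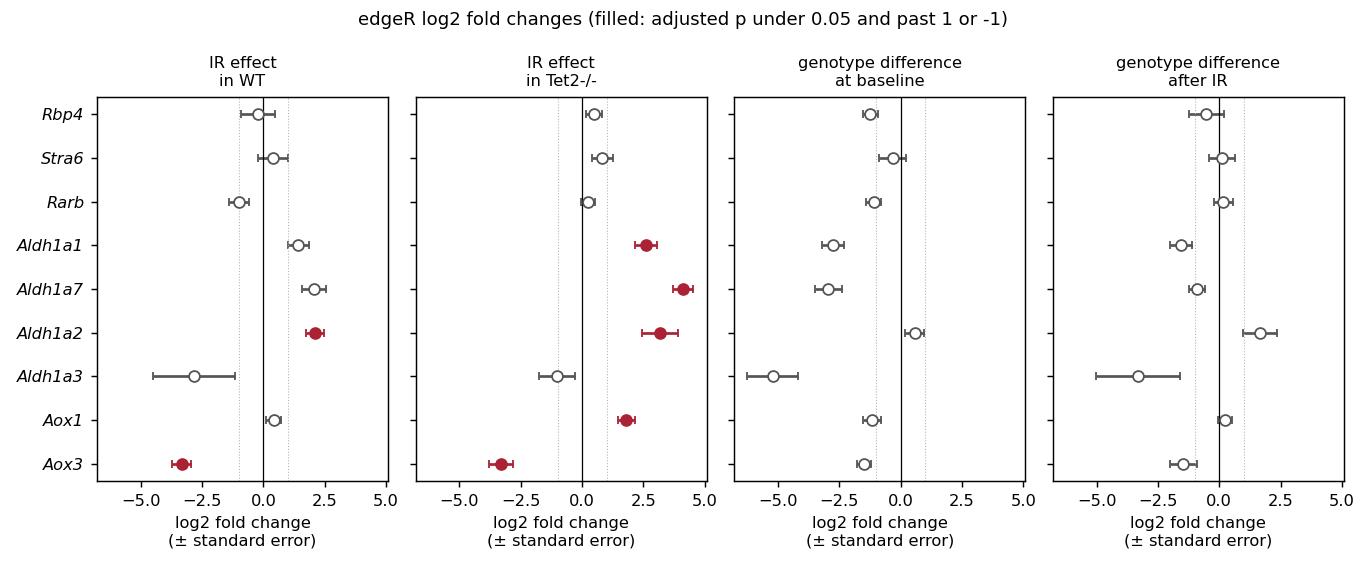
Log2 fold change from edgeR (x axis, with bars of 1 standard error) of the 9 genes in 4 comparisons, IR against baseline in each genotype and Tet2-/- against WT at baseline and after IR, with filled points for called genes and dotted lines at 1 and -1. Aldh1a1, Aldh1a7, Aldh1a2 and Aox1 are filled to the right and Aox3 to the left for IR in Tet2-/-, Aldh1a2 and Aox3 are filled for IR in WT, and no point is filled between genotypes.

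In the baseline comparison, 7 of the 9 members (Rbp4, Rarb, Aldh1a1, Aldh1a7, Aldh1a3, Aox1 and Aox3) had FPKM lower in every Tet2-/- library than in any WT library, against 16.5% of all genes tested, and none was higher in every library, against 3.06%. The median log2 difference of the members was -1.23, beside 0.00 over all genes tested. The members were named with earlier results known, so these counts describe the chosen genes. The 9 adipocyte markers summed to between 67.3 and 332 FPKM in WT baseline and between 46.8 and 82.6 in Tet2-/- baseline. Fabp4 alone gave 58.1, 94.9 and 150 of these in WT and 36.4, 72.2 and 54.9 in Tet2-/-. All 7 markers tested had negative log2 differences, with a median of -4.51, and none was called. With their mean level as a covariate the differences were -3.32 for Aldh1a1 and -3.70 for Aldh1a7 (edgeR adjusted p = 0.836 for each) and 1.16 for Stra6. That level ran from -0.17 to 3.6 in WT baseline and from -0.99 to -0.13 in Tet2-/- baseline on the log2 scale. It thus largely followed genotype, and this fit on 6 libraries cannot separate them. After IR the non-overlapping members were Aldh1a1 and Aldh1a7, both lower in Tet2-/-, beside 14.6% of all genes lower and 22.0% higher.

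For IR in WT, Aldh1a1, Aldh1a7 and Aldh1a2 were higher in every IR library than in any baseline library, against 18.9% of genes, and Aox3 was lower, against 10.4%. For IR in Tet2-/-, Rbp4 and Aox1 joined those 3 on the higher side, against 40.5%, and Aox3 was again lower, against 17.9%. All 9 members had a positive interaction term, with a median of 1.23. Over all genes the median was 0.10, so positive terms were the commoner sign there as well. The sign of the Aox3 and Stra6 terms changed under other settings. The interaction shares its libraries with the separate IR effects and with the baseline difference, which was negative in 8 of the 9 with a median of -1.23. These are not independent readings, and the members were named with earlier results known. Tubule injury markers summed to between 3230 and 4460 FPKM in Tet2-/- IR and between 483 and 1450 in WT IR, although 0 of 5 were called between the genotypes after IR and the Havcr1 values overlapped. Neutrophil markers summed to between 73.8 and 130 against 3.99 to 9.28. WT IR replicate 1, which had the most Aldh1a1 and Aldh1a7, had the least Lcn2 of the IR libraries, 74.2 FPKM. The part of injury severity in the member values was not tested.

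The pathway around the members was read through 80 further genes in 7 lists. After IR in WT, 2 of the 72 pathway genes tested were called higher, against 1.46% of all genes, and 2 lower, against 0.887%. With the replicate number as a block, 4 were called higher and 3 lower. Ttr, the partner that keeps RBP4 in plasma, fell by 2.08 on the log2 scale, from 58.2 ± 13.8 to 14.3 ± 1.68 FPKM (SD, n = 3). Rbp7, a cellular retinol-binding protein, rose by 1.95 and Adh1, the abundant class I alcohol dehydrogenase, fell by 1.20, from 669 ± 161 to 304 ± 53.2 FPKM. Xdh, the xanthine oxidoreductase that shares the molybdenum cofactor with the AOX enzymes, rose by 1.67, from 1.84 ± 0.341 to 6.12 ± 1.36 FPKM. Each of the calls for Rbp7, Adh1 and Xdh was lost without WT IR replicate 2 (adjusted p = 0.0605, 0.146 and 0.0526) and without some other single libraries. The call for Rbp7 was also lost in the fit of all 12 libraries (adjusted p = 0.19), and that for Adh1 with limma on log2(FPKM + 1) (adjusted p = 0.0561).

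After IR in Tet2-/-, 10 of 71 pathway genes were called higher, against 12.7% of all genes, and 20 lower, against 11.6%, with a median log2 change of -0.24 beside 0.04 over all genes tested. Among genes of retinoid uptake, carriage and storage, 1 was higher and 5 lower of 11. Bco1, which cleaves carotene into retinaldehyde, rose by 2.88, while Bco2, which cleaves carotene off centre, fell by 2.82 and Ttr fell by 2.46. Among the retinol and retinal oxidoreductases, 4 were higher and 7 lower of 18. Akr1b8, an aldo-keto reductase, rose by 5.05, from 0.890 ± 0.244 to 35.1 ± 6.22 FPKM. Dhrs3, which returns retinaldehyde to retinol, fell by 2.52, from 84.0 ± 9.37 to 17.8 ± 4.90 FPKM, and Rdh5, a retinol dehydrogenase, fell by 2.49.

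Further down the pathway the counts were small. Cyp26a1, the enzyme that clears retinoic acid, was called lower with a log2 change of -2.14 (standard error 0.46, edgeR adjusted p = 0.00802). Its mean was under 1 FPKM in both groups. Of 10 receptors and co-regulators tested, only Nrip1, a ligand-dependent co-repressor, was called, higher by 1.69, and its call was lost without Tet2-/- baseline replicate 3 (adjusted p = 0.0506) and with limma on log2(FPKM + 1), where the change was 0.95. Of 10 genes known as retinoic acid targets, Tgm2 rose by 1.97, from 41.3 ± 6.10 to 193 ± 29.6 FPKM, and Cyp26a1 and Dhrs3 fell. Of 16 other aldehyde dehydrogenases, 2 were higher, with Aldh18a1 of proline synthesis at 1.89, and 5 lower, with the mitochondrial proline enzyme Aldh4a1 at -1.95 and Aldh9a1 at -1.33. Of 9 genes of molybdenum enzymes and cofactor synthesis, Xdh rose by 2.99, to 14.9 ± 1.53 FPKM, and Marc2, a mitochondrial amidoxime reductase, fell by 1.23. Marc1, its close relative, was also called lower (-3.24, standard error 0.65), with a mean under 1 FPKM in both groups.

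**Figure D4:**
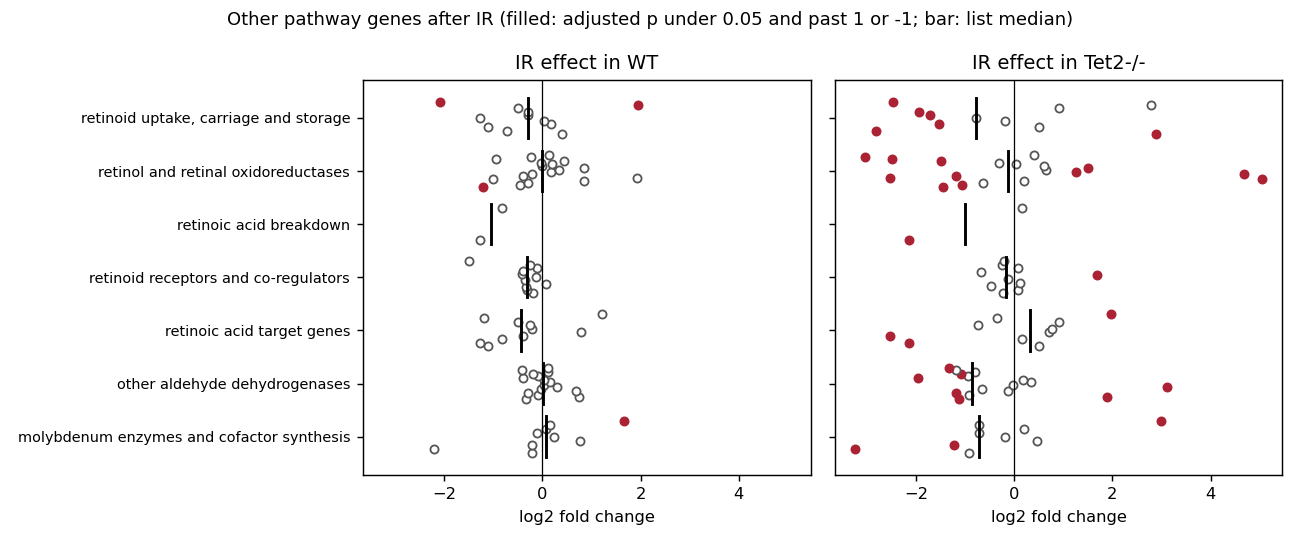
Log2 fold change with IR (x axis) of the other pathway genes in WT on the left and Tet2-/- on the right, by list (y axis), with filled points for called genes and a bar at each list's median. In WT 4 genes are filled, and in Tet2-/- 30 are, with Akr1b8 farthest to the right at 5.05.

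Between genotypes at baseline, 0 of 69 pathway genes were called by edgeR, 4 passed lower at an unadjusted p under 0.05 with the fold limit, against 3.38% of all genes, and DESeq2 called 4 lower, where it called 297 of 16086 genes lower. After IR, 2 of 71 were higher in Tet2-/- than in WT, against 2.30% of all genes, and 11 lower, against 3.85%. Akr1b8 was higher by 1.66 and Xdh by 1.19. Lrp2 and Cubn, the endocytic receptors megalin and cubilin that reclaim filtered RBP4 and other proteins in the proximal tubule, were lower by log2 differences of -1.81 and -1.87, with Lrp2 at 72.0 ± 15.2 FPKM in WT IR and 21.8 ± 2.43 in Tet2-/- IR. Dhrs3 differed by -1.99, Bco2 by -2.04, Adh7 by -1.85, Aldh4a1 by -1.52 and Suox, the sulfite oxidase with the same cofactor, by -1.07. The call for Akr1b8 was lost without any one of WT IR replicates 1 and 2 or Tet2-/- IR replicates 1, 2 and 3 (adjusted p up to 0.0888). Those for Bco2 (adjusted p up to 0.0579) and Adh7 (up to 0.0613) were lost without WT IR replicate 1 and without Tet2-/- IR replicate 1, the latter of which also ended the call for Dhrs3 (0.0516). Leaving out WT IR replicate 1 or 3 ended the call for Xdh (adjusted p up to 0.0559). That for Suox was lost without either of these or Tet2-/- IR replicate 2 and in 3 other alternatives, with an adjusted p of up to 0.0543 or a log2 difference within 1. Lrp2 and Cubn are also in the proximal tubule list given above, of which 6 of 13 were lower.

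Across the 12 libraries, the pattern of Aldh1a1 was most like that of Aldh1a7 (Pearson r = 0.955 of log2(FPKM + 0.1), the closest of 12933 genes compared), and that of Aldh1a7 most like Aldh1a1 and then Fbp2 (r = 0.915). Aldh1a3 was most like Gcnt3 (r = 0.97) and Cldn11 (r = 0.948), which measured 1.47 and 3.85 FPKM on average in WT baseline and 0.0867 and 0.084 in Tet2-/- baseline. Rbp4 was most like Ano1 (r = 0.956), Rarb most like Marveld1 (r = 0.95), and Aldh1a2 most like Inip (r = 0.963). These libraries share groups, depth and cell make-up, and the correlations describe likeness over them alone.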

How the data were processed

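The authors aligned reads of 12 kidney libraries with STAR to mm9 and quantified transcripts with HOMER, per the labels and the study's methods. The deposited estimated counts come in steps of 0.5 (38.7% of values were not whole) and were rounded to whole numbers here. The deposited FPKM values were used as given. The authors' analysis also used edgeR, and read length and strand setting are not given in the sources used here. Of 34600 transcripts, 24421 symbols were kept, each by its highest total. Genes were tested with the quasi-likelihood test of edgeR 4.0.16 (R 4.3.3, TMM scaling, filterByExpr, Benjamini-Hochberg over all genes tested) on the 6 libraries of a comparison, or all 12 for the interaction. The standard error is the log2 change divided by the root of F. limma 3.58.1 on log2(FPKM + 1) or log2(FPKM + 0.1) and DESeq2 1.42.0 were alternatives, with other scalings, filters, a replicate block and each library left out. The fits were tested on simulated data. Counts summed over 1 transcript per gene, 51007362 to 107969879 a library, limit precision for genes under 1 FPKM, and intervals cover the spread between 3 mice a group.

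Same-numbered libraries deviated together within WT (correlations 0.38, 0.363 and 0.358 for IR against baseline) and within Tet2-/- (0.135, 0.359 and 0.222), so blocked values stand beside IR results whose call they change. The labels give no reason for this pairing, and the baseline and IR kidneys came from different mice. The study's methods count the mice in pairs without saying how the replicate numbers relate to them. Blocked values are therefore an alternative and not the test reported.

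Members and lists were chosen with earlier results of these data known. Named pathway genes were at most 3 called genes per list and comparison with the largest change and a mean of at least 1 FPKM. Cyp26a1 and Marc1 fall outside this rule, with means under 1 FPKM, and were named after their values were seen. Transcript likeness was measured with BLAST 2.17.0 on GENCODE transcripts, and promoters are from RefSeq.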

Additional observations from a re-analysis of the deposited data

Results flagged for a closer look

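The interaction of genotype and IR passed an adjusted p of 0.05 (edgeR, all 12 libraries) for Tet2 and for 14 of 73 pathway genes, 2 with a positive and 12 with a negative term, beside 9.16% of all genes, so that IR had a different effect in libraries labelled Tet2-/- and in WT. No member did. Tet2 itself had an interaction of -2.0 (standard error 0.48, adjusted p = 0.0285), with a log2 change with IR of -0.48 in WT and -2.52 in Tet2-/-. In 6 of 21 alternatives the Tet2 call was lost (adjusted p up to 0.0613), namely with limma on both FPKM scales and without any one of WT baseline replicates 2 and 3, Tet2-/- baseline replicate 2 and Tet2-/- IR replicate 1.

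Positive terms were found for Akr1b8 (3.17, adjusted p = 0.00692) and Xdh (1.36, adjusted p = 0.0309), the latter lost without any one of 7 libraries (adjusted p up to 0.0845), which were replicates 1 and 3 of WT baseline, of Tet2-/- baseline and of WT IR, and Tet2-/- IR replicate 3. Akr1b8 measured 5.21, 11.3 and 14.1 FPKM in WT IR and 27.9, 39.2 and 38.1 in Tet2-/- IR, against 0.649 to 3.34 in the baseline libraries.

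Negative terms were found for 8 genes that carry or convert retinoids. They included Dhrs3 at -2.08, Bco2 at -2.06, Cubn at -1.66, Lrp2 at -1.60 and Rdh5 at -1.50. Dhrs3 measured 96.0, 52.8 and 48.7 FPKM in WT IR and 16.5, 23.2 and 13.6 in Tet2-/- IR, beside 74.7 to 93.4 in the 6 baseline libraries. Adh7, another retinol-oxidising alcohol dehydrogenase, had a term of -1.43 (adjusted p = 0.0484), with a log2 change with IR of 0.84 in WT and -0.63 in Tet2-/-, neither called. Rdh7 (-2.75) and Dhrs4 (-0.93) complete the 8. Both lie outside the rule for named genes and were added after their values were seen, and Rdh7 had a mean under 1 FPKM in every group. Further negative terms were those of Aldh4a1 (-1.52), Aldh9a1 (-1.40), Marc2 (-0.99) and Aldh5a1 (-0.82). The call for Aldh5a1 was lost in 7 of 21 alternatives (adjusted p up to 0.0809), which were limma on log2(FPKM + 1) and leaving out WT baseline replicate 1, any Tet2-/- baseline library, or WT IR replicate 1 or 3. That for Marc2 was lost in 6 (adjusted p up to 0.0758), without WT baseline replicate 3, Tet2-/- baseline replicate 1 or 3, WT IR replicate 1 or 3, or Tet2-/- IR replicate 1. Lrp2 lost its call without Tet2-/- baseline replicate 2 or 3 or WT IR replicate 1 (adjusted p up to 0.0682), and Rdh5 without Tet2-/- baseline replicate 1 (0.0517). Of the proximal tubule markers, which include Lrp2 and Cubn, 6 of 13 had a called negative term, the median of the 13 was -1.33, and the part of proximal tubule cells in these terms was not tested.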

How the results depend on the processing

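Of 755 alternative values for single members, 695 kept direction and side of the threshold. After IR in WT, 1 member was called higher and 1 lower. The higher count was 3 with DESeq2, with the replicate block and with unadjusted p, 2 with limma on log2(FPKM + 0.1), 0 with limma on log2(FPKM + 1), and 0 to 1 with 1 library left out. The lower count was 2 with the replicate block, 0 with limma on log2(FPKM + 1) and with a mean FPKM of at least 1, and 0 to 1 with 1 library left out. In Tet2-/- the 4 members called higher with IR became 3 with limma on log2(FPKM + 1) and with a mean FPKM of at least 1, which leaves out Aox1, and the 1 lower became 0 under both. At baseline the 0 called lower became 6 with DESeq2, 7 with unadjusted p and 1 (Aldh1a1) with the replicate block. After IR the genotype counts of 0 became 1 higher with DESeq2 and with unadjusted p, and 0 to 1 with 1 library left out. The lower count became 1 with DESeq2 and with the block, and 2 with all 12 libraries and with unadjusted p. Positive interactions became 2 with DESeq2, 1 with limma on log2(FPKM + 1), 1 with the replicate block and 0 to 2 with 1 library left out. The cause of these moves was not tested.

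Direction turned only for members that were not called. Stra6 at baseline was 1.16 with the adipocyte covariate, Rbp4 after IR was 0.01 with limma on log2(FPKM + 0.1), and the Aox3 interaction was -0.00397 with all transcripts and -0.03 with the replicate block. With 1 library left out, the ranges were -1.30 to 0.25 for Rbp4 and -0.04 to 1.02 for Stra6 with IR in WT, -1.50 to 0.28 for Aldh1a3 and -0.000707 to 0.48 for Rarb with IR in Tet2-/-, and -0.67 to 0.29 for Stra6 at baseline. After IR between genotypes they were -3.92 to 1.76 for Aldh1a3, -0.99 to 0.59 for Rbp4, -0.13 to 0.45 for Rarb and -0.22 to 0.55 for Stra6. For the interaction they were -0.15 to 0.91 for Stra6 and -0.60 to 0.33 for Aox3.

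Replicate numbers did not pair the genotypes at baseline (correlations -0.186, -0.167 and 0.071), and after IR the correlations were 0.003, 0.23 and 0.32. With the block, Aldh1a1 was -2.70 (adjusted p = 0.0318) at baseline and -1.64 (adjusted p = 0.0424) after IR, and no other member's genotype call changed. Over all genes, calls ranged between 88 and 987 for IR in WT (376 in the fit reported), 2256 and 4278 for IR in Tet2-/- (3974), 1 and 320 at baseline (2), 294 and 1654 after IR (996) and 697 and 2808 for the interaction (1534). With library sizes alone the median gene in Tet2-/- moved with IR by 0.27 in place of 0.04, and calls were 2860 higher and 1397 lower in place of 2078 and 1896. The interaction split was then 1129 and 700 in place of 633 and 901. DESeq2 gave no adjusted p for Aldh1a3 in 2 comparisons.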
